A study of Homo sapiens with 24 samples.

Results

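The transcript levels of 10 immediate early genes were followed across 8 conditions of a pair of human ovarian adenocarcinoma cell lines. The genes were SRF, EGR1, EGR2, EGR3, NR4A1, IER2, IER3, IER5, ZFP36 and ZFP36L1, chosen by name, and each had a row among the 28277 genes of both deposited count tables. The first table (pair A) held untreated PEO1 cells, which lack functional BRCA2, and untreated PEO4 cells, in which a reversion mutation restores BRCA2. The other table (pair B) held PEO1BRCA+ and PEO4 cells, each untreated or after 2 h or 6 h in 5 µM pyridostatin (PDS). PEO1BRCA+ derives from PEO1, and its BRCA2 became functional again by a reversion that arose spontaneously. PDS is a small molecule that binds G-quadruplexes, the stacked structures that guanine-rich nucleic acids can form. Every condition had 3 replicates. The lines derive from the same patient, and PEO1BRCA+ is a single reverted derivative. The treated cells were compared with untreated cells, for which no vehicle was described. Adherent cells were detached with trypsin and counted before lysis in all conditions. The study added sodium pyruvate to the medium of PEO1 cells without functional BRCA2 and of their corresponding PEO4 cells. It states none for PEO1BRCA+, so medium and pair cannot be told apart.

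Immediate early genes are transcribed within minutes of a growth factor or stress signal, without new protein synthesis, and their RNAs are short-lived. A common route runs through the kinase ERK to ELK1 and related factors, which sit with SRF (serum response factor) on CArG boxes in the promoters, and a parallel route uses MRTF coactivators that respond to actin. EGR1, EGR2 and EGR3 are zinc-finger transcription factors whose output is limited by the corepressors NAB1 and NAB2, NR4A1 is an orphan nuclear receptor, and ZFP36 and ZFP36L1 bind AU-rich elements and promote decay of the RNAs that carry them, immediate early RNAs included. IER2, IER3 and IER5 encode small proteins induced in the same early wave, of which IER3 acts in cell survival and IER5 in the control of heat shock factor.

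Promoter sequences were taken from RefSeq (GRCh38.p14) in windows of 250 bases before and 50 bases after each annotated start. The windows covered 8 of the 10 genes with 13 starts; EGR3 and IER3 had no entry. CArG boxes were searched as the exact pattern CCWWWWWWGG, where W is A or T. They were found in 3 of the 13 windows, in EGR1, SRF and 1 of the 3 EGR2 starts, against 1.29% of all 35116 windows. Sites with a mismatch or outside the windows were not searched, so a window without a match does not show that a gene lacks a CArG box. These stretches are shown because SRF is both a regulator of the group and a member of it. Capitals mark the CArG boxes, and each stretch ends at the base before the start.

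EGR1, chr5:138465329-138465478, plus strand: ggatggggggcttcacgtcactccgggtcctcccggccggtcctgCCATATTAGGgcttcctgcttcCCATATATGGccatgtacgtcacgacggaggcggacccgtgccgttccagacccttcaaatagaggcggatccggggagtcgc
EGR2, chr10:62816367-62816476, minus strand: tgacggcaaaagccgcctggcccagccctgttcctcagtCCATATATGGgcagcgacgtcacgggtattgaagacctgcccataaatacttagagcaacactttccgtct
SRF, chr6:43171209-43171268, plus strand: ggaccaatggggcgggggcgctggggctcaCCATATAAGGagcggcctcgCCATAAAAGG

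In EGR1 the CArG boxes began 105 and 83 bases upstream of the start, in SRF 30 and 10 bases upstream, and in EGR2 71 bases upstream. The EGR motif GCGNGGGCG, searched on both strands, was found in 4 of the 13 windows against 9.43% of all windows, among them 198 bases upstream in EGR1 and 49 bases upstream in SRF. The motif TGACGTCA of CREB-type factors was found in 1 window, of ZFP36L1, 52 bases upstream, against 1.85% of all windows. Because PDS binds G-quadruplexes, a G4 motif of 4 runs of at least 3 G separated by 1 to 7 bases was also searched on both strands. It was found in 4 of the 13 windows, of EGR1, ZFP36, SRF (at its other start) and EGR2, against 25.0% of all windows. The EGR1 match overlapped the EGR motif, and both ZFP36 matches lay on the strand opposite to the gene and so read as runs of C. In the next stretches capitals mark the G4 motif.

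EGR1, chr5:138465249-138465303, plus strand: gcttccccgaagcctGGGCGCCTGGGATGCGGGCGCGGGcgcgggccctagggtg
ZFP36, chr19:39406597-39406817, plus strand: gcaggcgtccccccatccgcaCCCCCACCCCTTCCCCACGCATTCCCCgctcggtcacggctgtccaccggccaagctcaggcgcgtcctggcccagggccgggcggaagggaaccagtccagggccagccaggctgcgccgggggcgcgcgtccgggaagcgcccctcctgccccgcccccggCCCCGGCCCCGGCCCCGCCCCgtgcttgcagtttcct

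A match describes the letters of the window only, and binding or folding was not measured in these libraries.

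**Figure D1:**
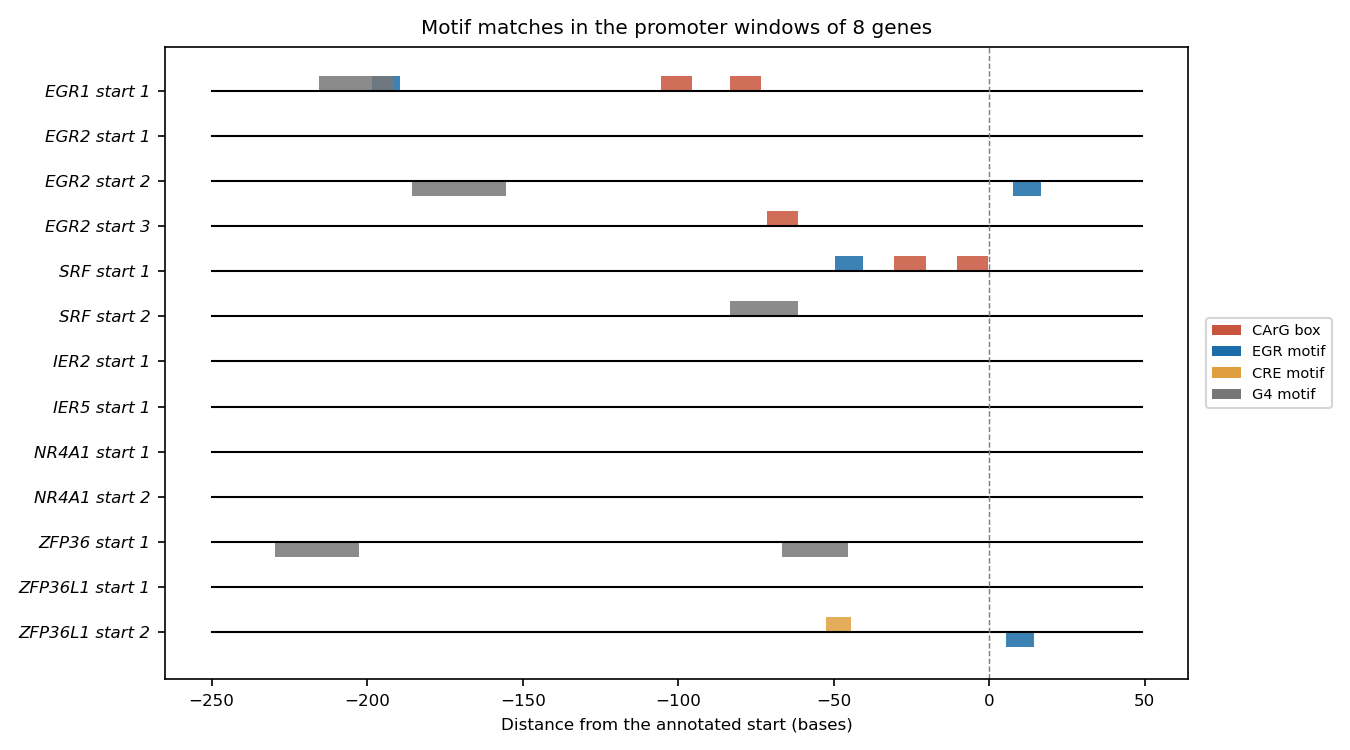
Positions of motif matches (bars, above the line on the gene's strand and below it on the opposite strand) by distance in bases from the annotated start, for the 13 promoter windows of 8 genes. CArG boxes lie in the windows of EGR1, SRF and the EGR2 start 3.

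The libraries of pair A held 32528913 to 63882077 counts, the untreated libraries of pair B 18699929 to 22375644 and the PDS-treated libraries 33260167 to 43713947. Reads from ribosomal RNA genes made up 0.217% to 0.474% of the untreated and 0.0163% to 0.0369% of the treated pair B libraries, so treatment, depth and this share cannot be told apart. Levels are given as CPM, the share of a library's counts scaled to a common total, after TMM scaling, and a gene was called when the adjusted p of edgeR's quasi-likelihood test over all genes was under 0.05 and the log2 fold change was over 1 in size. Of the 13 ovarian carcinoma markers checked, SOX17 was at 0 in all 3 replicates of 4 conditions, and PAX8, WT1 and EPCAM were present in every library. Of the 12 markers of this list that were tested, 1 was called higher (PAX8) and 2 lower (KRT7, MECOM) in PEO4 of pair A, beside 12.6% and 13.1% of all genes. The same 2 were lower in untreated PEO4 of pair B, beside 12.6%. After PDS, 1 was lower at each time in PEO1BRCA+ (MUC16), beside 6.39% at 2 h and 6.83% at 6 h. In PEO4, 1 was higher at 2 h (MECOM), beside 6.40%. At 6 h in PEO4, 1 was higher (MECOM) and 2 lower (MUC16, CLDN3), beside 6.26% and 16.3%. The fibroblast markers summed to 38.3 to 41.7 CPM in untreated PEO4 of pair B, 8.81 to 12.9 CPM after 2 h and 3.59 to 4.75 CPM after 6 h of PDS, with DCN at 0 in the treated cells, against 5.31 to 7.42 CPM in untreated PEO1BRCA+ and 2.61 to 3.54 CPM in PEO1BRCA+ after 6 h. In pair A they summed to 30.1 to 32.7 CPM in PEO1 and 8.48 to 13.3 CPM in PEO4, where COL1A1 was lower (log2 difference -1.83) and COL1A2 higher (3.93). The leukocyte markers, with CD3E at 0 in every condition, summed to 5.38 to 5.84 CPM in PEO1 and 0.798 to 1.48 CPM in PEO4 of pair A, 1.71 to 2.94 CPM in untreated PEO4 of pair B, 5.63 to 6.17 CPM at 2 h and 1.74 to 2.14 CPM at 6 h, and to 5.14 to 7.04 CPM in PEO1BRCA+ over all times. The endothelial markers, with CDH5 at 0 in PEO4, summed to 1.06 to 1.36 CPM in PEO1 and 1.002 to 1.48 CPM in PEO4 of pair A, 1.71 to 3.01 CPM in untreated PEO4 of pair B, 0.533 to 1.0103 CPM at 2 h and 0.176 to 0.200 CPM at 6 h, and to 0.611 to 1.25 CPM in PEO1BRCA+ over all times. The part of these signals in the changes described next was not tested. In bulk RNA, fewer cells that express a gene and less of its RNA per cell cannot be told apart.

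**Figure D2:**
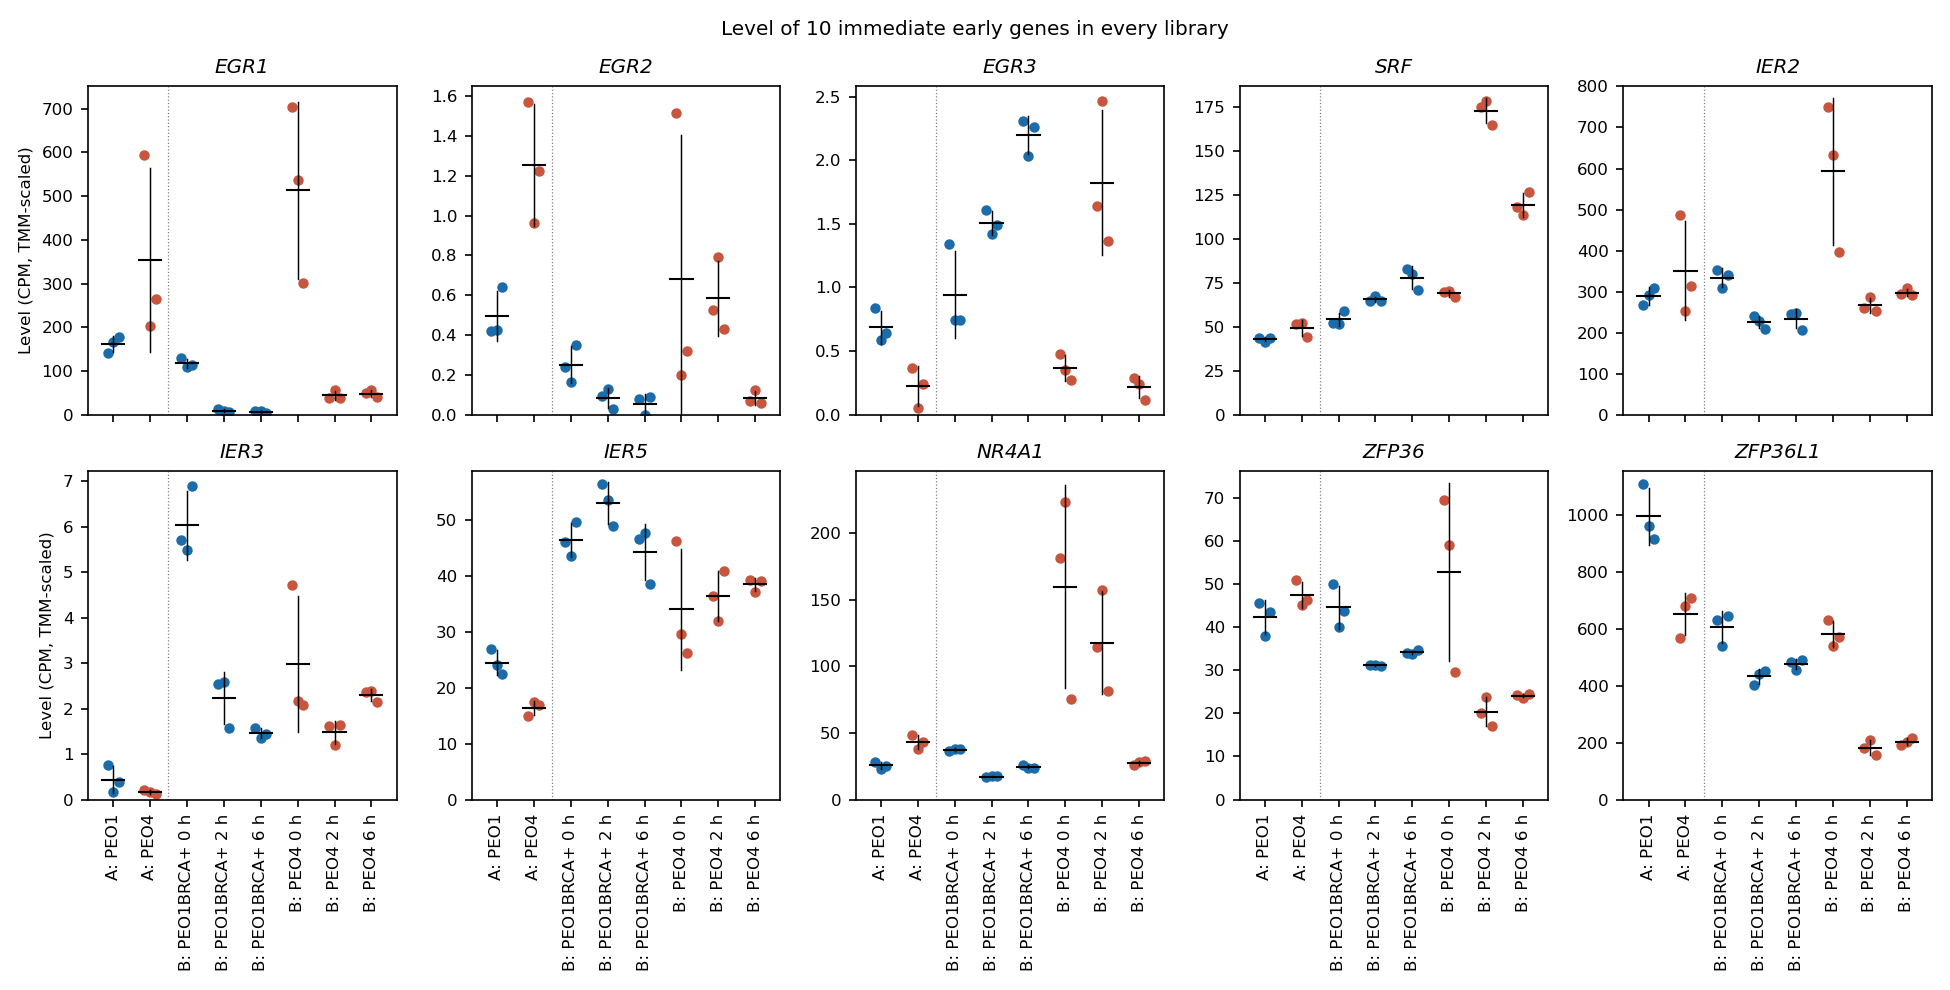
Level (CPM after TMM scaling, linear axes from 0) of each gene in all 24 libraries; points are replicates, the horizontal bar is the mean and the vertical bar 1 SD (cut at 0), blue for PEO1 or PEO1BRCA+ and red for PEO4, with pair A left of the dotted line. EGR1 was at most 56.8 CPM in the treated libraries and at least 110 CPM in the untreated libraries.

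Per kilobase of the canonical GENCODE transcript, ZFP36L1 and IER2 had the highest mean levels of the 10 genes in untreated cells. EGR2 and EGR3 were the lowest in untreated pair B and in PEO1, while in PEO4 of pair A the lowest were IER3 at 0.137 ± 0.0377 and EGR3 at 0.0496 ± 0.0349 CPM per kb, below EGR2 at 0.421 ± 0.102. In untreated PEO1BRCA+ the order ran from ZFP36L1 at 200.9 ± 18.6 CPM per kb (SD, n = 3) through IER2 at 158 ± 10.9, EGR1 at 37.5 ± 3.26, ZFP36 at 25.5 ± 2.90, NR4A1 at 15.01 ± 0.415, SRF at 12.8 ± 0.931, IER5 at 11.1 ± 0.733 and IER3 at 4.88 ± 0.610 to EGR3 at 0.209 ± 0.0763 and EGR2 at 0.0846 ± 0.0314, and no neighbours overlapped between their replicates. In untreated PEO4 of pair B the order was led by IER2 at 281 ± 85.2 CPM per kb, ZFP36L1 at 193 ± 15.4 and EGR1 at 164 ± 64.5, which overlapped with each other in turn. After 2 h of PDS, EGR1 stood in place 7 in PEO1BRCA+ at 2.78 ± 1.08 CPM per kb, overlapping IER3, and in place 5 in PEO4 at 14.1 ± 3.45, overlapping ZFP36. These ranks describe polyA-selected counts over a single transcript model per gene.

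After 2 h of PDS, 3 of the 10 genes were called lower and none higher in PEO1BRCA+, while in PEO4 5 were called lower and 2 higher. In PEO1BRCA+ the genes called lower were EGR1, IER3 and NR4A1, beside 7.57% of all tested genes called in either direction, 6.39% lower and 1.18% higher. In PEO4, EGR1, IER2, IER3, ZFP36 and ZFP36L1 fell, beside 11.0% of all tested genes called lower, and EGR3 and SRF rose, beside 6.40% called higher and 17.4% in either direction. After 6 h, EGR1 and IER3 were lower and EGR3 was higher in PEO1BRCA+, beside 8.13% of genes called in either direction, 6.83% lower and 1.29% higher. In PEO4 at 6 h, EGR1, EGR2, NR4A1, ZFP36 and ZFP36L1 were lower and no member was called higher, beside 22.6% of genes called in either direction, 16.3% lower and 6.26% higher. EGR1 fell in both lines at both times, and the untreated libraries are shared by the 2 h and 6 h comparisons of a line. Treated and untreated replicates did not overlap for 9 of the 10 genes in PEO1BRCA+ at each time, against 61.8% of all genes, and for 7 of 10 in PEO4 at each time, against 64.2% of all genes at 2 h and 72.2% at 6 h.

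**Figure D3:**
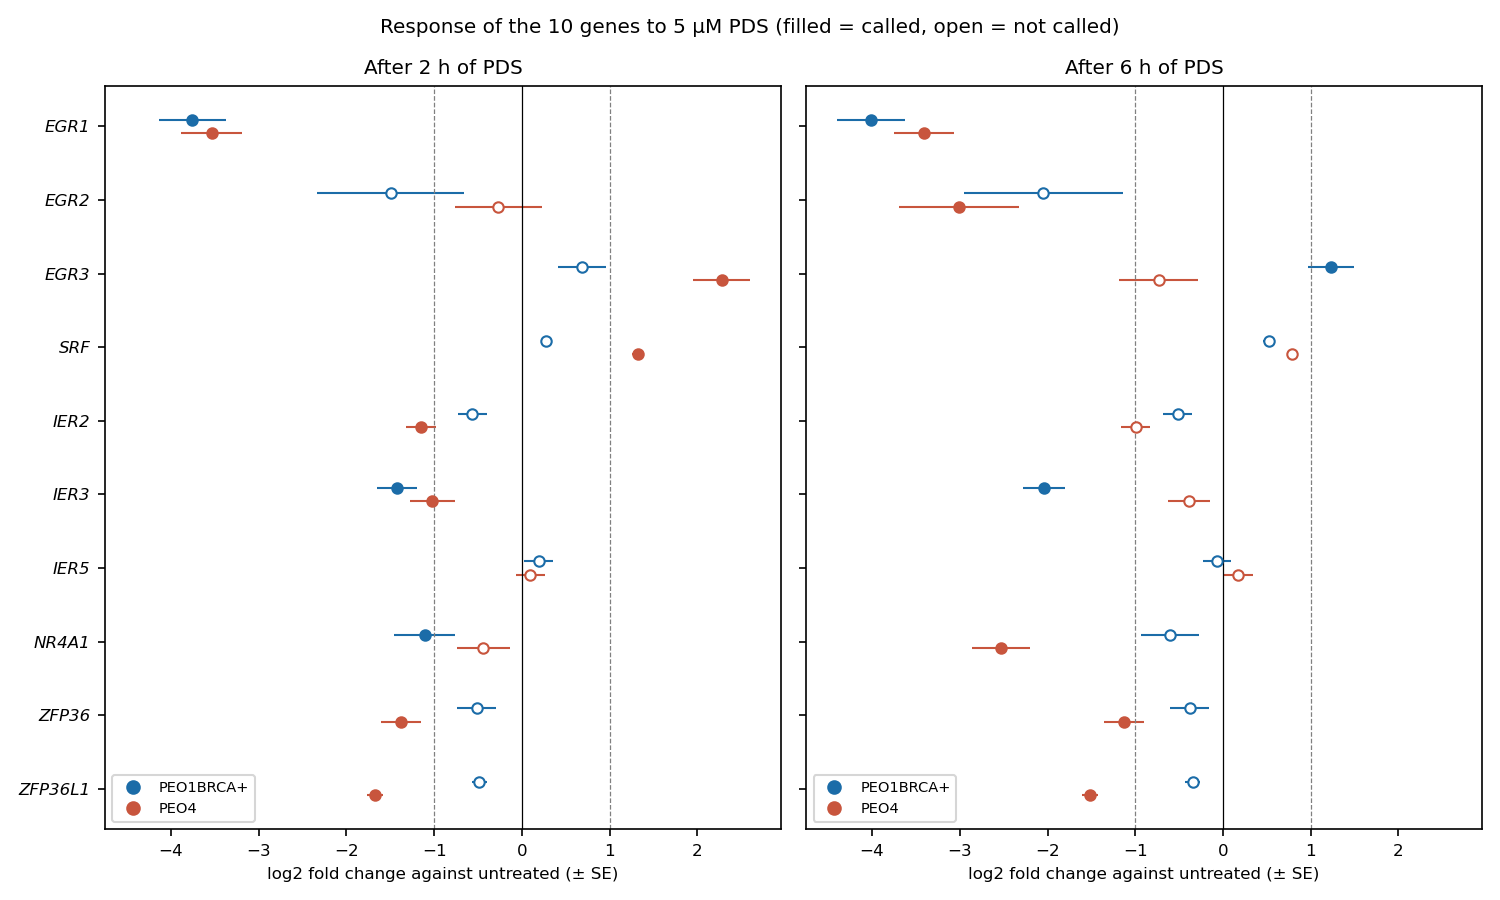
log2 fold change of each gene after 2 h (left) and 6 h (right) of 5 µM PDS against untreated cells, with its standard error (horizontal bars), in PEO1BRCA+ (blue) and PEO4 (red); filled points were called and dashed lines mark a log2 fold change of 1. EGR1 is the lowest point in both lines at both times.

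SRF, which lies on chromosome 6 (43171269 to 43181506, plus strand, 7 exons), encodes the factor that binds the CArG box and carries such boxes in its own promoter. It rose in PEO4 within 2 h, from 70.1, 70.5 and 66.8 CPM untreated to 175, 179 and 165 CPM. At 6 h it stood at 118, 114 and 127 CPM, between the untreated and the 2 h replicates without overlap. The log2 fold change was 1.32 ± 0.06 (SE, adjusted p = 9.8e-15) at 2 h and 0.79 ± 0.06 (adjusted p = 7.2e-11) at 6 h, the latter under the fold threshold, and the log2 difference from 2 h to 6 h was -0.53 (adjusted p = 8e-08). In PEO1BRCA+, SRF measured 52.0, 51.8 and 58.7 CPM untreated, 64.8, 67.4 and 64.8 CPM at 2 h and 83.0, 80.2 and 70.7 CPM at 6 h. The conditions did not overlap, but the log2 fold changes of 0.28 ± 0.07 (adjusted p = 0.00091) and 0.52 ± 0.06 (adjusted p = 2.8e-07) stayed under the fold threshold. The 2 h response was 1.05 ± 0.09 higher on the log2 scale in PEO4 than in PEO1BRCA+ (adjusted p = 2.6e-09), and without replicate 3 of untreated PEO1BRCA+ this difference was 0.98, just under the threshold. In pair A, SRF measured 43.8, 41.5 and 43.8 CPM in PEO1 and 51.6, 52.0 and 44.4 CPM in PEO4, a log2 difference of 0.20 ± 0.08 (adjusted p = 0.059).

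Of the 7 factors that work with SRF or hold back the EGR proteins (ELK1, ELK3, ELK4, MRTFA, MRTFB, NAB1, NAB2), none was called after PDS in either line at either time, beside 7.57% and 8.13% of all genes in PEO1BRCA+ and 17.4% and 22.6% in PEO4. ELK1, a target of ERK, measured 66.1, 74.2 and 63.5 CPM in untreated PEO4 and 72.2, 58.7 and 67.8 CPM at 2 h (log2 fold change -0.04, adjusted p = 0.67). NAB2, under the fold threshold, had log2 fold changes of -0.86 (adjusted p = 3.8e-09) in PEO1BRCA+ and -0.55 (adjusted p = 1.6e-07) in PEO4 at 2 h. Both corepressors were higher in untreated PEO4 than in its partner, NAB2 by 1.41 in pair A and 1.71 in pair B on the log2 scale and NAB1 by 1.16 and 1.05. Among 17 tested SRF targets of the actin cytoskeleton, 3 were called higher and none lower in PEO4 at 2 h, beside 6.40% and 11.0% of all genes, with a median log2 fold change of 0.66 against 0.00 over all genes. At 6 h, 4 were called higher and none lower, beside 6.26% and 16.3%, with a median of 0.60 against -0.03. The integrin subunit ITGA5 rose by 1.83 on the log2 scale at 2 h and by 2.03 at 6 h, and the LIM-domain protein FHL2 by 1.72 and 1.15. In PEO1BRCA+ none of the 17 was called at either time, beside 7.57% and 8.13% of all genes, and their medians were 0.23 at 2 h and 0.34 at 6 h against -0.03 over all genes. In untreated PEO4 of pair A, none of the 17 was called higher than in PEO1 and 7 lower, beside 12.6% and 13.1% of all genes. In untreated PEO4 of pair B, 2 were higher than in PEO1BRCA+ and 5 lower, beside 12.2% and 12.6%. The medians of these log2 differences were -0.73 in pair A and -0.30 in pair B.

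EGR1, on chromosome 5 (138465479 to 138469303, plus strand, 2 exons), showed the steepest fall of the 10 genes in PEO1BRCA+ at both times and in PEO4 at both times. In PEO1BRCA+ it measured 129, 110 and 113 CPM untreated, 12.1, 8.71 and 5.34 CPM after 2 h and 8.79, 8.79 and 4.23 CPM after 6 h of PDS. The untreated and treated replicates were far apart, and the raw counts fell from 2578 to 2698 per library to 179 to 384 at 2 h in libraries of greater total depth. EGR1 was thus 13.5-fold lower at 2 h (log2 fold change -3.76 ± 0.38 SE, adjusted p = 2.9e-06) and 16.1-fold lower at 6 h (-4.01 ± 0.39, adjusted p = 1.8e-06). In PEO4 it measured 704, 537 and 301 CPM untreated, 37.7, 56.8 and 38.5 CPM at 2 h and 48.9, 56.4 and 39.8 CPM at 6 h. It was 11.6-fold lower at 2 h (-3.54 ± 0.35, adjusted p = 1e-06) and 10.6-fold lower at 6 h (-3.41 ± 0.34, adjusted p = 1.1e-06). The untreated PEO4 replicates spread widely, yet the lowest of them was over all treated replicates, and the treated levels at 2 h and 6 h overlapped. The response did not differ detectably between lines, with differences of 0.22 ± 0.49 at 2 h (adjusted p = 0.76) and 0.60 ± 0.49 at 6 h (adjusted p = 0.35) on the log2 scale.

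EGR1 was also higher in PEO4 than in PEO1BRCA+ in each treatment state of pair B. The log2 difference was 2.13 ± 0.32 (SE) in untreated cells (adjusted p = 6.3e-05), 2.35 ± 0.37 at 2 h (adjusted p = 8.1e-05) and 2.73 ± 0.38 at 6 h (adjusted p = 2.8e-05), and the replicates of the lines did not overlap at any time. In pair A, EGR1 measured 141, 166 and 178 CPM in PEO1 and 593, 202 and 265 CPM in PEO4. All PEO4 values were above all PEO1 values, but replicate 1 of PEO4 stood apart, and the log2 difference of 1.13 ± 0.46 was not called (adjusted p = 0.095), although DESeq2 called it at 1.13 (adjusted p = 0.045). Without PEO4 replicate 1 the difference was 0.54, and without PEO4 replicate 2 it was 1.41 and was called (adjusted p = 0.024).

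EGR3, on chromosome 8 (22687659 to 22693480, minus strand, 2 exons), rose at 2 h in PEO4 and was called higher at 6 h in PEO1BRCA+, at levels of at most 2.46 CPM. LOC107986924 overlaps this gene, and reads of overlapping genes cannot be told apart. In PEO4 it measured 0.476, 0.352 and 0.276 CPM untreated (11, 7 and 6 counts), 1.64, 2.46 and 1.37 CPM at 2 h (59, 87 and 57 counts) and 0.286, 0.244 and 0.120 CPM at 6 h (12, 8 and 4 counts). The rise at 2 h was 4.85-fold (log2 fold change 2.28 ± 0.32 SE, adjusted p = 1.2e-06), and from 2 h to 6 h the level fell by 3.01 on the log2 scale (adjusted p = 1.6e-08). At 6 h it overlapped the untreated level (-0.73 ± 0.45, adjusted p = 0.15). In PEO1BRCA+ the values were 1.34, 0.744 and 0.746 CPM untreated, 1.61, 1.42 and 1.49 CPM at 2 h and 2.31, 2.03 and 2.26 CPM at 6 h, with no overlap between times. The log2 fold change was 0.69 ± 0.28 at 2 h (adjusted p = 0.039, under the fold threshold) and 1.23 ± 0.26 at 6 h (adjusted p = 0.00036), and without replicate 1 of untreated PEO1BRCA+ the 2 h value was 1.02 and passed both thresholds. The responses differed between lines in opposite directions at the 2 times, by 1.59 ± 0.44 at 2 h (adjusted p = 0.0063) and by -1.97 ± 0.53 at 6 h (adjusted p = 0.0037). At 6 h EGR3 was 9.79-fold lower in PEO4 than in PEO1BRCA+ (log2 difference -3.29 ± 0.31, adjusted p = 8.8e-10), whereas at 2 h the log2 difference was 0.27 ± 0.23 (adjusted p = 0.31).

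In untreated cells EGR3 was lower in PEO4 than in the partner line in both pairs. The log2 difference was -1.51 ± 0.52 in pair A (adjusted p = 0.023), where PEO1 measured 0.837, 0.587 and 0.639 CPM and PEO4 0.370, 0.0567 and 0.245 CPM, and -1.32 ± 0.38 in pair B (adjusted p = 0.0031). In pair A the call was lost without PEO1 replicate 1 (adjusted p = 0.082), PEO4 replicate 2 (0.067) or PEO4 replicate 3 (0.056), and the log2 difference ran from -1.12 without PEO4 replicate 2 to -2.19 without PEO4 replicate 1. In pair B the difference fell just short of the fold threshold without replicate 1 of untreated PEO1BRCA+ (adjusted p = 0.033).

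EGR2, on chromosome 10 (62811996 to 62819167, minus strand, 2 exons), was close to the detection limit in pair B, with 0 to 35 counts per library. The PEO4 levels were 1.52, 0.201 and 0.322 CPM untreated, 0.528, 0.793 and 0.432 CPM at 2 h and 0.0715, 0.122 and 0.0599 CPM at 6 h. The 35 counts of untreated replicate 1 stood against 4 and 7 counts in the others, while the 2 h and 6 h replicates did not overlap. The 6 h level was 6.67-fold below the 2 h level (log2 fold change -2.74 ± 0.66 SE, adjusted p = 0.0011). Against untreated cells it was lower by 3.01 on the log2 scale (adjusted p = 0.00044), a call that was lost without untreated replicate 1 (log2 fold change -1.61, adjusted p = 0.055). The 2 h value of -0.27 (adjusted p = 0.65) turned to 1.12 without the same library. In PEO1BRCA+ the counts were 5, 4 and 8 untreated, 3, 5 and 1 at 2 h and 3, 0 and 3 at 6 h, and neither time was called (adjusted p = 0.14 and 0.061). Under the other processing settings the 6 h log2 fold change ran from -3.47 to -2.03. The adjusted p there ran from 0.039 to 0.061, so that some settings called EGR2 lower at 6 h. The count of 0 allows a level of up to 0.0910 CPM at 3 counts. In pair A, EGR2 was higher in PEO4 at 1.57, 0.964 and 1.22 CPM than in PEO1 at 0.418, 0.427 and 0.639 CPM (log2 difference 1.34 ± 0.35, adjusted p = 0.0055). The pair B difference of 1.47 ± 0.62 in untreated cells (adjusted p = 0.04) was 0.08 without replicate 1 of untreated PEO4 and was also not called without replicate 1 (adjusted p = 0.087) or replicate 2 (0.13) of untreated PEO1BRCA+. At 2 h EGR2 was 6.46-fold higher in PEO4 than in PEO1BRCA+ (log2 difference 2.69 ± 0.66, adjusted p = 0.00089).

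NR4A1, on chromosome 12 (52022832 to 52059503, plus strand, 7 exons), fell early in PEO1BRCA+ and late in PEO4. In PEO4 it measured 181, 223 and 75.2 CPM untreated, 115, 157 and 81.1 CPM at 2 h and 25.9, 28.3 and 28.7 CPM at 6 h. The untreated and 2 h replicates overlapped (log2 fold change -0.44 ± 0.30 SE, adjusted p = 0.22), and every 6 h replicate was below both. The fall against untreated cells at 6 h was 5.78-fold (-2.53 ± 0.33, adjusted p = 1.3e-05), and that between 2 h and 6 h was 4.27-fold (-2.09 ± 0.32, adjusted p = 9.5e-05). In PEO1BRCA+ NR4A1 measured 36.1, 37.6 and 38.1 CPM untreated, 16.8, 17.4 and 17.6 CPM at 2 h and 25.9, 23.8 and 23.9 CPM at 6 h. The replicates of each time lay close together and apart from those of the others, and the level was 2.16-fold lower at 2 h (-1.11 ± 0.34, adjusted p = 0.016) and 1.52-fold lower at 6 h without being called (-0.60 ± 0.33, adjusted p = 0.15). The spread behind these p-values was estimated over all conditions of pair B, the scattered untreated PEO4 included. Under the other processing settings, DESeq2 included, the adjusted p in PEO1BRCA+ at 6 h ran from 3e-08 to 0.21. The log2 fold change there ran from -0.75 to -0.59, under the fold threshold. The 6 h response was lower in PEO4 by 1.93 ± 0.46 on the log2 scale (adjusted p = 0.004), and the 2 h responses differed by 0.67 ± 0.46 (adjusted p = 0.28).

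NR4A1 was higher in PEO4 than in PEO1BRCA+ by 2.10 ± 0.33 untreated (adjusted p = 7.4e-05) and 2.77 ± 0.34 at 2 h (adjusted p = 6.4e-06) on the log2 scale. At 6 h the lines overlapped, with a log2 difference of 0.17 ± 0.33 (adjusted p = 0.67). In pair A it measured 28.3, 23.1 and 25.3 CPM in PEO1 and 48.7, 38.3 and 42.9 CPM in PEO4, a log2 difference of 0.76 ± 0.11 (adjusted p = 5.7e-05) that was under the fold threshold. The RefSeq annotation places NR4A1AS and other transcripts over this gene, and the strand setting of the counting was not given, so reads of overlapping genes cannot be told apart. The related receptors NR4A2 and NR4A3 were likewise higher in untreated PEO4 in both pairs, by 1.10 and 1.66 in pair A and 3.02 and 2.63 in pair B on the log2 scale. After PDS in PEO4, NR4A3 rose from 1.90, 2.31 and 1.34 CPM to 8.999, 13.3 and 6.02 CPM at 2 h (log2 fold change 2.35, adjusted p = 5.3e-08) and was at 1.36, 0.915 and 1.53 CPM at 6 h. NR4A2 measured 14.3, 18.7 and 7.65 CPM untreated, 13.1, 15.2 and 10.2 CPM at 2 h and 5.94, 5.13 and 4.73 CPM at 6 h (6 h log2 fold change -1.35, adjusted p = 0.00011). Neither was called after PDS in PEO1BRCA+.

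IER2, on chromosome 19 (13150411 to 13154911, plus strand, 2 exons), fell in PEO4 at 2 h. Within pair B it was lower in every treated than in every untreated library of either line. The PEO4 levels were 749, 633 and 397 CPM untreated, 260, 288 and 253 CPM at 2 h and 294, 308 and 291 CPM at 6 h. All treated replicates lay under all untreated ones, with a fall of 2.22-fold at 2 h (log2 fold change -1.15 ± 0.17 SE, adjusted p = 4e-05) and a 6 h value of -0.99 ± 0.17 (adjusted p = 0.00012) just short of the fold threshold. Without replicate 1 of untreated PEO4 the 2 h value was -0.95 and the call was lost, and without replicate 3 of untreated PEO4 the 6 h value was -1.21 and was called. In PEO1BRCA+ IER2 measured 354, 309 and 340 CPM untreated, 240, 228 and 210 CPM at 2 h and 246, 248 and 207 CPM at 6 h. The untreated replicates were above the treated ones, with log2 fold changes of -0.56 (adjusted p = 0.012) and -0.52 (adjusted p = 0.019) that were not called. In untreated pair B cells IER2 was higher in PEO4 by 0.83 ± 0.17 (adjusted p = 0.00061), under the threshold, and by 1.05 without replicate 3 of untreated PEO4, which was called. In pair A it measured 266, 292 and 310 CPM in PEO1 and 486, 254 and 313 CPM in PEO4, which overlapped, and the difference of 0.28 (adjusted p = 0.34) was -0.03 without PEO4 replicate 1.

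IER3, on chromosome 6 (30743199 to 30744547, minus strand, 2 exons), fell at both times in PEO1BRCA+. There it measured 5.70, 5.49 and 6.89 CPM untreated, 2.55, 2.59 and 1.58 CPM at 2 h and 1.57, 1.36 and 1.44 CPM at 6 h, from 119 to 157 counts untreated to 45 to 58 counts at 6 h. It was 2.68-fold lower at 2 h (log2 fold change -1.42 ± 0.23 SE, adjusted p = 1.2e-05) and 4.12-fold lower at 6 h (-2.04 ± 0.24, adjusted p = 1.6e-07). In PEO4 the values were 4.72, 2.16 and 2.07 CPM untreated, 1.61, 1.19 and 1.63 CPM at 2 h and 2.36, 2.38 and 2.16 CPM at 6 h. The 2 h replicates lay below the untreated ones and those of 6 h overlapped with them. The 2 h fold change of -1.02 ± 0.25 (adjusted p = 0.0012) was -0.51 (adjusted p = 0.06) without replicate 1 of untreated PEO4 and -0.89 without replicate 2 of 2 h PEO4. The 6 h fold change was -0.39 ± 0.24 (adjusted p = 0.16), so that the 6 h responses of the lines differed by 1.65 ± 0.34 (adjusted p = 0.00033). In untreated cells IER3 was at the edge of the fold threshold between lines (log2 difference of PEO4 from PEO1BRCA+ -0.999 ± 0.23, adjusted p = 0.00051), and without replicate 1 of untreated PEO4 it was -1.51 and was called. IER3 was not tested in pair A, where it had 36, 6 and 21 counts in PEO1 and 14, 6 and 4 counts in PEO4 and did not pass the filter. IER3-AS1 overlaps this gene, and reads of the 2 transcripts cannot be told apart.

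IER5, on chromosome 1 (181088700 to 181092900, plus strand, 1 exon), was the only member not called in any of the 12 comparisons. It measured 46.1, 43.7 and 49.8 CPM in untreated PEO1BRCA+, 56.5, 53.6 and 49.1 CPM at 2 h and 46.7, 47.7 and 38.7 CPM at 6 h. In PEO4 it measured 46.4, 29.6 and 26.2 CPM untreated, 36.4, 31.96 and 40.9 CPM at 2 h and 39.4, 37.2 and 39.1 CPM at 6 h. Untreated and treated replicates overlapped in both lines at both times. The log2 fold changes were 0.19 ± 0.16 (SE) and -0.07 ± 0.16 in PEO1BRCA+ and 0.09 ± 0.17 and 0.17 ± 0.17 in PEO4 (adjusted p = 0.35 to 0.75), which does not show that its level stayed the same. Its paralog IER5L did respond in PEO4, from 110, 115 and 114 CPM untreated to 28.7, 34.1 and 25.2 CPM at 2 h (log2 fold change -1.95 ± 0.09, adjusted p = 2.7e-14) and 58.9, 64.5 and 64.2 CPM at 6 h. In PEO1BRCA+ IER5L was at 40.2, 43.7 and 48.4 CPM untreated and 39.8, 40.9 and 36.0 CPM at 2 h, and the 2 h responses differed between lines by -1.77 ± 0.13 (adjusted p = 3.2e-10). In pair A, IER5 measured 26.9, 24.1 and 22.6 CPM in PEO1 and 14.98, 17.4 and 16.96 CPM in PEO4, a log2 difference of -0.58 ± 0.11 (adjusted p = 0.00048) under the fold threshold.

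ZFP36L1, on chromosome 14 (68787655 to 68796243, minus strand, 2 exons), overlapped between the untreated lines of pair B and fell in PEO4. The PEO4 levels were 632, 541 and 573 CPM untreated, 181, 210 and 156 CPM at 2 h and 193, 203 and 215 CPM at 6 h. The fall was 3.19-fold at 2 h (log2 fold change -1.67 ± 0.09 SE, adjusted p = 1.3e-12) and 2.86-fold at 6 h (-1.52 ± 0.09, adjusted p = 3.9e-12), with all treated replicates far below the untreated ones. In PEO1BRCA+ it measured 630, 542 and 646 CPM untreated, 405, 442 and 452 CPM at 2 h and 483, 457 and 491 CPM at 6 h. These did not overlap with the untreated replicates either, at log2 fold changes of -0.48 ± 0.09 (adjusted p = 9.2e-05) and -0.34 ± 0.09 (adjusted p = 0.0023) that were not called. The response was larger in PEO4 by 1.19 ± 0.12 at 2 h (adjusted p = 2e-07) and by 1.17 ± 0.12 at 6 h (adjusted p = 1.7e-07). In pair A it measured 1109, 963 and 915 CPM in PEO1 and 568, 680 and 709 CPM in PEO4, a log2 difference of -0.61 ± 0.10 (adjusted p = 0.00025) under the fold threshold.

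ZFP36, on chromosome 19 (39406847 to 39409407, plus strand, 2 exons), fell in PEO4 from 69.6, 59.0 and 29.7 CPM untreated to 20.2, 23.8 and 17.1 CPM at 2 h and 24.2, 23.6 and 24.5 CPM at 6 h. The untreated replicates were scattered, the treated ones close together, and no treated replicate reached the untreated range. The fold was 2.60 at 2 h (log2 fold change -1.38 ± 0.23 SE, adjusted p = 0.00013) and 2.19 at 6 h (-1.13 ± 0.23, adjusted p = 0.00056), the latter at -0.87 without replicate 1 of untreated PEO4. In PEO1BRCA+ it measured 50.0, 39.9 and 43.7 CPM untreated, 31.1, 31.2 and 31.0 CPM at 2 h and 34.1, 33.8 and 34.6 CPM at 6 h, without overlap with the untreated replicates. The log2 fold changes of -0.52 ± 0.22 (adjusted p = 0.071) and -0.38 ± 0.22 (adjusted p = 0.17) were not called. Under the other processing settings, DESeq2 included, the adjusted p in PEO1BRCA+ ran from 2.1e-07 to 0.11 at 2 h and from 4.8e-05 to 0.25 at 6 h. The log2 fold changes stayed under the fold threshold, at most -0.66 at 2 h and -0.53 at 6 h in size. The difference between lines in the 2 h response was -0.86 ± 0.32 (adjusted p = 0.049), and without replicate 3 of untreated PEO4 it was -1.15 and was called. The paralog ZFP36L2 was lower at 2 h in PEO4, at 181, 207 and 153 CPM untreated, 83.8, 86.0 and 90.4 CPM at 2 h (log2 fold change -1.05 ± 0.07, adjusted p = 7e-12) and 162, 164 and 171 CPM at 6 h. ZFP36L2 was also lower in untreated PEO4 than in its partner, by 1.81 in pair A and 1.17 in pair B on the log2 scale.

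In the untreated comparison of pair A, 1 member was called higher in PEO4 (EGR2) and 1 lower (EGR3), beside 12.6% and 13.1% of all genes tested, or 25.8% together. In pair B, EGR1, EGR2 and NR4A1 were called higher and EGR3 lower, beside 12.2% and 12.6% of genes, or 24.8% together. The 2 tables were normalized separately, so levels are not compared across them. At 2 h of PDS, EGR1, EGR2, NR4A1 and SRF were higher and ZFP36L1 lower in PEO4 than in PEO1BRCA+, beside 13.9% and 12.6% of genes, or 26.5% together. At 6 h EGR1 was higher and EGR3 and ZFP36L1 were lower, beside 9.52% and 13.5%, or 23.0% together. The untreated replicates of the lines did not overlap in 7 of the 9 genes tested in pair A, against 67.9% of all genes, and in 6 of 10 in pair B, against 68.5%.

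**Figure D4:**
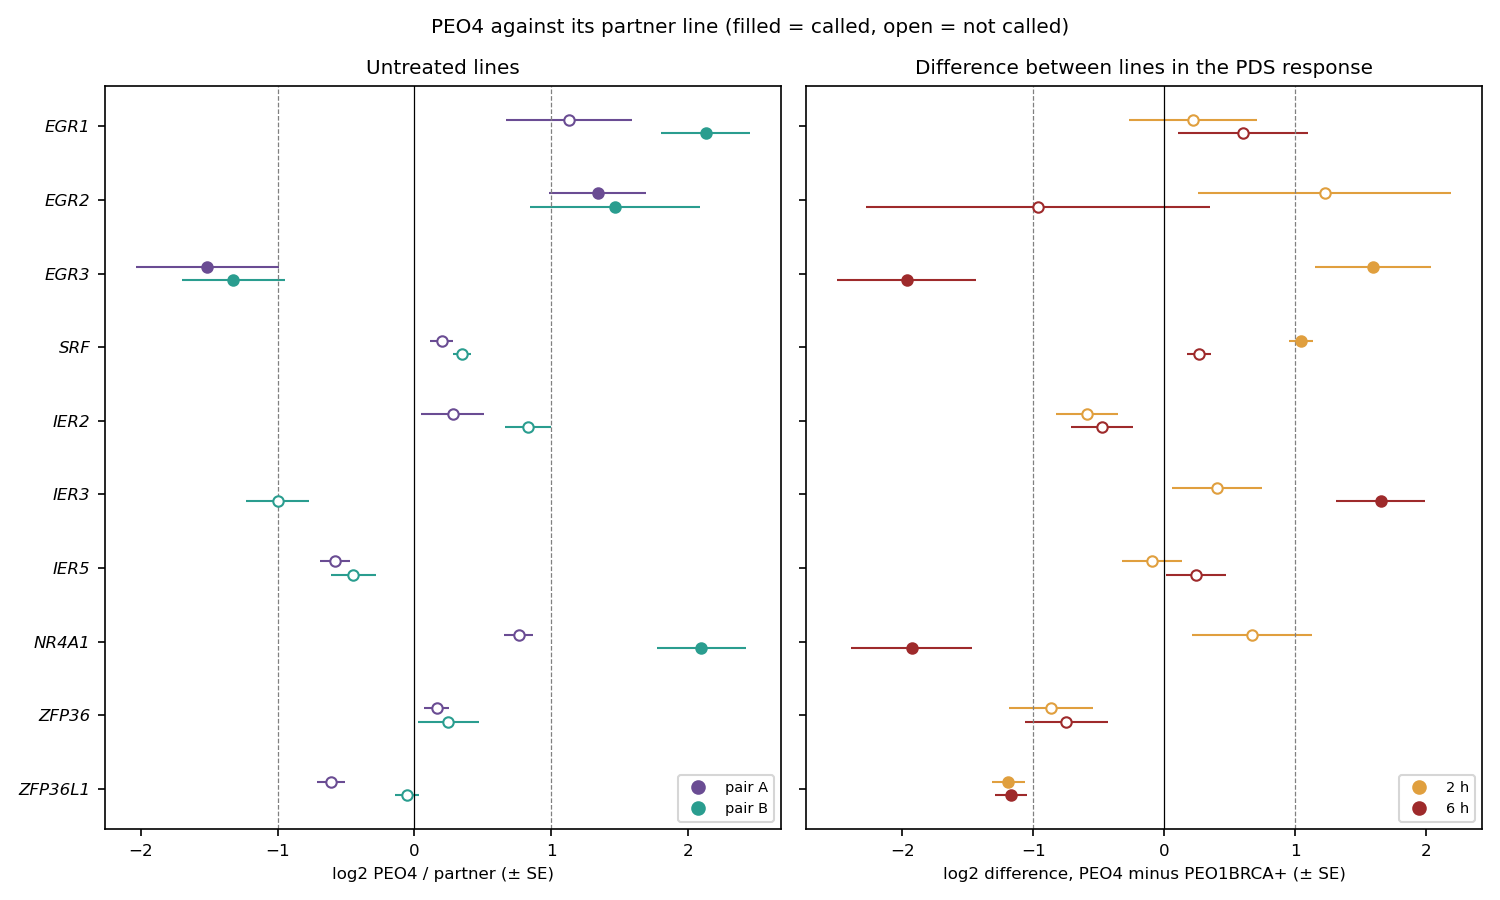
log2 difference between PEO4 and its partner line in untreated cells (left) and difference between lines in the response to PDS (right), each with its standard error; filled points were called and dashed lines mark 1. EGR3 changes side between 2 h and 6 h in the right panel, from 1.59 to -1.97.

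The response to PDS differed between lines for 3 members at 2 h and 4 at 6 h. The EGR3 and SRF responses were called higher in PEO4 at 2 h and that of ZFP36L1 lower, beside 6.10% and 4.92% of all genes, or 11.0% together. At 6 h IER3 was called higher and EGR3, NR4A1 and ZFP36L1 lower, beside 5.42% and 9.34%, or 14.8% together. By the adjusted p alone, 4 of the 10 members differed at 2 h, beside 37.3% of all genes, and 5 of 10 at 6 h, beside 47.4%. Between 2 h and 6 h, EGR2, EGR3 and NR4A1 fell in PEO4, beside 12.0% of genes called in either direction, 9.71% lower and 2.27% higher. In PEO1BRCA+ no member was called between the 2 times, beside 0.170% of all genes (0.0705% higher and 0.0999% lower), with 3 members at an unadjusted p under 0.05 in edgeR, beside 20.2% of all genes, 1 (SRF) at an adjusted p under 0.05, and 0 called by DESeq2.

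The spread between replicates of these genes was itself uneven. In untreated PEO4 of pair B the 7 members with a mean log2 CPM of at least 3 had a median coefficient of variation of 31.7%, from 2.94% for SRF to 47.6% for NR4A1, against a median of 7.41% over the 10242 genes at that level. After 6 h of PDS the same 7 genes had a median of 5.54% in PEO4, against 3.04% over all such genes. In untreated PEO1BRCA+ the members' median was 7.27% against 5.22%. Replicate 1 of untreated PEO4 was the highest of the 3 for 8 of the 10 genes, and replicate 3 the lowest for 8. Replicates also ran together elsewhere: replicate 2 of untreated PEO1BRCA+ was the lowest for 9 of 10, and replicate 2 of PEO4 at 2 h the highest for 8 of 10.

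Other immediate early genes were read from a list of 29, all tested. In PEO1BRCA+, 5 of the 29 were called lower at 2 h and 6 at 6 h and none higher, beside 6.39% and 6.83% of all genes called lower, with medians of 0.13 and 0.15 on the log2 scale, against -0.03 over all genes at both times. In PEO4, 8 were called lower and 8 higher at 2 h, beside 11.0% and 6.40% of all genes, and 7 lower and 3 higher at 6 h, beside 16.3% and 6.26%, with medians of 0.29 and -0.52, against 0.00 and -0.03 over all genes. FOS, an AP-1 subunit and the classic SRF target, measured 412, 238 and 75.8 CPM in untreated PEO4, 16.6, 25.3 and 12.7 CPM at 2 h and 13.1, 17.6 and 6.53 CPM at 6 h. Its log2 fold change was -3.74 ± 0.58 (SE, adjusted p = 8.1e-05) at 2 h in PEO4 and -2.28 ± 0.60 (adjusted p = 0.0064) in PEO1BRCA+. CCN2, which encodes a matricellular protein, rose in PEO4 from 121, 102 and 42.0 CPM to 583, 664 and 572 CPM at 2 h (log2 fold change 2.78 ± 0.31, adjusted p = 3.5e-06) and was at 63.2, 70.1 and 61.9 CPM at 6 h. In PEO1BRCA+ CCN2 was called lower at 6 h (log2 fold change -1.25 ± 0.31, adjusted p = 0.0042). Its 2 h response was higher in PEO4 than in PEO1BRCA+ by 3.32 ± 0.43 on the log2 scale (adjusted p = 4.9e-05).

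Of 13 ERK pathway kinases, none was called after PDS in PEO1BRCA+, beside 7.57% of all genes at 2 h and 8.13% at 6 h. In PEO4, 1 was called at 2 h and 2 at 6 h, beside 17.4% and 22.6% of all genes. The ribosomal S6 kinase RPS6KA3 rose in PEO4 from 73.1, 92.5 and 68.9 CPM to 209, 201 and 204 CPM at 2 h (log2 fold change 1.39 ± 0.07, adjusted p = 3.1e-14). At 6 h RPS6KA2 and MKNK2, which encode kinases that ERK phosphorylates, were called lower, by -1.28 and -1.01 on the log2 scale.

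Across the 18 libraries of pair B, which share lines and treatments and include the replicates of each condition, the log2 CPM of IER2 ran closest to that of JUNB among 10235 genes with a mean log2 CPM of at least 3 (Pearson r = 0.97). EGR1 ran closest to TPBG (0.98), EGR3 to MAFF (0.93), SRF to CAMTA1 (0.98), NR4A1 to C2orf68 (0.94), ZFP36 to NFYC-AS1 (0.91) and ZFP36L1 to SLC25A21 (0.98). For EGR2, IER3 and IER5 the closest genes were ANKH (0.89), UBXN2B (0.89) and CAPN1 (0.85). Within the group, EGR1 and IER2 ran together (0.92), as did ZFP36 and ZFP36L1 (0.86), while SRF and ZFP36L1 ran in opposite directions (-0.93). FOS was also close to IER2 (0.95) and to EGR1 (0.90). The other immediate early genes did not all run this way. Over their whole list r ran from -0.87 to 0.94 with EGR1 and from -0.81 to 0.97 with IER2. These are descriptions over 18 libraries in 6 conditions.

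**Figure D5:**
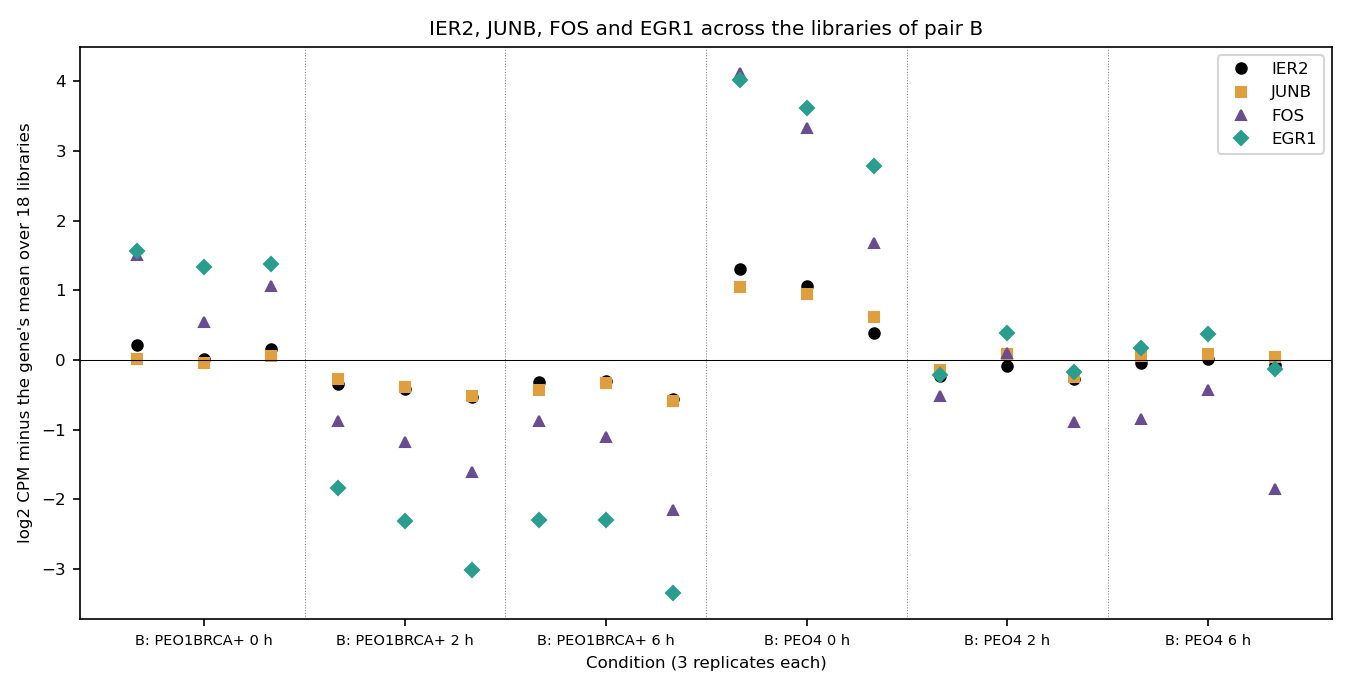
log2 CPM of IER2, JUNB, FOS and EGR1 in each of the 18 pair B libraries, each gene centred on its mean over those libraries; each group of 3 points is the replicates of a condition. All 4 genes are highest in untreated PEO4, where replicate 3 lies lowest, and EGR1 is lowest in treated PEO1BRCA+.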

How the data were processed

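The data were RNA-seq libraries from PEO1 and PEO4 cells (6 libraries, pair A) and PEO1BRCA+ and PEO4 cells (18 libraries, pair B). The authors deposited raw counts per gene, 1 table per pair, and the submitters' notes name FastQC, fastp, STAR and featureCounts with hg38; versions, annotation and strand setting are not given in the sources used here. The pair A libraries were made with a directional polyA kit; the kit for pair B is not given in the sources used here. Lines without numeric counts (3 in all) were dropped, and all columns were used. Genes were filtered with filterByExpr (minimum count 10, minimum total 15), leaving 15882 genes in pair A and 17020 in pair B. Each table was fitted with edgeR 4.0.16 (R 4.3.3) by quasi-likelihood with robust dispersion, TMM scaling and 1 mean per condition, and p-values were adjusted by Benjamini-Hochberg over all genes tested. A call needed an adjusted p under 0.05 and a log2 fold change over 1 in size. The standard errors (SE) given were derived from the test, as the size of the log2 fold change over the square root of its F statistic. The scripts were tested on simulated counts, where 200 of 200 genes changed by 2 on the log2 scale were recovered for PEO4 against PEO1 of pair A (15683 genes) and for PEO1BRCA+ at 2 h against untreated (16636 genes), with 3 and 4 false calls. The changed genes were drawn from those of higher mean level, with the spread fitted for genes of that level. The simulation thus does not cover genes as low as EGR2, EGR3 and IER3, genes of unusual spread or changes near the fold threshold. Log CPM used a prior count of 2. DESeq2 1.42.0 was an alternative, with other scalings, no filter, thinned counts, a replicate block, only the groups compared, the adjusted p alone and leaving out each replicate. All members are named. From other lists, genes were taken from the 2 called genes with the largest change and a mean log2 CPM of at least 3 per comparison. Not every gene that met this rule is given. Any gene of a list of at most 10 and the closest gene by correlation could also be named. Among the ovarian carcinoma markers, MECOM, SOX17, WT1 and EPCAM were named outside this rule. FOS and JUNB beside EGR1 and IER2 in the correlations were chosen after their values were seen. The members and lists were chosen with earlier results of these data known. The study describes its gene expression replicates as biological, while the labels do not say whether they were separate cultures. The p-values measure the spread between these samples, estimated per gene over all conditions of a table and not only those compared. Under the other processing settings the adjusted p in PEO4 at 2 h reached 0.017 for ZFP36, 0.021 for IER3 and 0.0043 for IER2. The main values there were 0.00013, 0.0012 and 4e-05. Counting precision follows from 18699929 to 63882077 counts per library.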

Additional observations from a re-analysis of the deposited data

Results flagged for a closer look

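Of the members, 9 effects of PDS differed between PEO4 and PEO1BRCA+ by the interaction test of edgeR with adjustment over all genes, 4 of 10 at 2 h and 5 of 10 at 6 h. By the same adjusted p, 37.3% and 47.4% of all genes tested differed, so these counts are near the share over all genes. At 2 h the log2 difference, PEO4 minus PEO1BRCA+, was 1.59 for EGR3 (adjusted p = 0.0063), 1.05 for SRF (2.6e-09), -0.86 for ZFP36 (0.049) and -1.19 for ZFP36L1 (2e-07). At 6 h it was -1.97 for EGR3 (0.0037), 1.65 for IER3 (0.00033), 0.26 for SRF (0.019), -1.93 for NR4A1 (0.004) and -1.17 for ZFP36L1 (1.7e-07). ZFP36 at 2 h and SRF at 6 h passed the adjusted p and not the fold threshold.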

How the results depend on the processing

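Depth limits EGR2 and EGR3 most, with 0 to 102 counts per library, and IER3 in pair A. In pair A, 2 instead of 1 were called higher by DESeq2 and by the adjusted p alone, and 3 instead of 1 lower by the adjusted p alone, which 30.1% of all genes passed as higher and 31.6% as lower; leaving out a replicate gave 1 to 2 higher and 0 to 2 lower. In untreated pair B, 2 instead of 1 were called lower with library totals, DESeq2, no filter and the replicate block, 3 by the adjusted p alone, and 1 to 2 when a replicate was left out, and 5 instead of 3 were called higher by the adjusted p alone, 2 by DESeq2, the replicate block, thinned counts and only the groups compared, and 2 to 4 when a replicate was left out. The adjusted p alone gave, for PEO1BRCA+, 2 higher and 5 lower at 2 h (all genes 26.4% and 26.2%), 2 higher and 4 lower at 6 h (27.0% and 26.0%) and 1 higher between times (3.96%); for PEO4, 1 higher and 6 lower at 6 h (34.6% and 35.2%) and 1 higher and 4 lower between times (28.9% and 31.3%); for the difference in response, 2 lower at 2 h (3066 of 17020 genes) and 2 higher at 6 h (24.4%); and between lines, 4 lower at 2 h (35.8%) and 3 higher at 6 h (34.0%), with 34.0% higher and 34.6% lower in untreated pair B. Leaving out a replicate gave 0 to 1 higher in PEO1BRCA+ at 2 h, 3 to 5 lower in PEO4 at 2 h and 3 to 6 at 6 h, and 1 to 3 higher and 1 to 2 lower in the 2 h and 3 to 4 lower in the 6 h difference of response. DESeq2, library totals and thinned counts gave 3 instead of 2 lower in PEO1BRCA+ at 6 h and 6 instead of 5 in PEO4 at 6 h, as did size factors and upper-quartile scaling in PEO4. The replicate numbers did not pair the samples (in pair B, 1 of 45 same-numbered correlations was over 0.1), and with the replicate block IER3 in PEO4 at 2 h was -0.99, EGR2 between untreated pair B lines 1.36 (adjusted p = 0.053) and IER3 there -1.03, now called. EGR2 in that comparison was also lost by DESeq2 (0.083) and with thinned counts (0.088).

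The direction of IER5 in PEO4 at 2 h turned with library totals (-0.033), and that of EGR2 in the 6 h difference of response with thinned counts (0.93). Leaving out a replicate turned the sign of values that were not called: IER2 in pair A ranged from -0.026 to 0.47, ZFP36 between untreated pair B lines from -0.0056 to 0.53, EGR1 between times in PEO1BRCA+ from -0.50 to 0.038 and IER2 there from -0.0010 to 0.13, IER5 in PEO1BRCA+ at 6 h from -0.11 to 0.032, EGR2 in PEO4 at 2 h from -0.68 to 1.12, IER5 there from -0.063 to 0.39, IER3 in PEO4 at 6 h from -0.60 to 0.13, IER5 between times in PEO4 from -0.00059 to 0.18, and in the difference of response EGR1 at 2 h from -0.051 to 0.51, IER5 at 2 h from -0.26 to 0.19 and EGR2 at 6 h from -1.48 to 0.43. Between treated lines, EGR3 at 2 h ranged from -0.0065 to 0.44 and EGR2 at 6 h from -0.019 to 0.90. The cause was not tested. Library totals moved the all-gene median after PDS to between -0.13 and -0.19 on the log2 scale, and in PEO4 at 6 h they gave 698 genes higher and 3334 lower, against 1066 and 2782 with TMM; IER2 there was then called, at -1.15.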
